A study of Mus musculus with 6 samples.

Results

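Mitosis, cyclins and proliferation markers were followed in mouse pre-osteoblasts kept static or exposed to simulated microgravity. The group was a given list of 58 gene symbols, covering the proliferation markers Mki67 and Top2a, cyclins, their kinases and inhibitors, and the machinery of spindle assembly, chromosome segregation and cytokinesis. Of these, 46 had a probe with that single symbol, out of 8588 genes measured, and all 46 passed the filter on low values. The other 12 (Ccnb1, Cdkn1b, Kif2c, Kif22, Cenpe, Prc1, Anln, Smc4, Ncaph, Espl1, Nusap1 and Spag5) had no such probe and were not analysed here. Where a gene had more than 1 probe, the one with the highest mean was taken, which concerned Smc2. The cells were of the 2T3 line in 6 samples grown in OptiCells, which are closed cassettes with gas-permeable walls. The 3 static samples stayed at rest as controls, and the 3 microgravity samples were turned on a Random Positioning Machine, which keeps turning them so that no direction of pull lasts. Both groups are the same line with no named agent or further allele, and the sources used here do not state culture age or length of exposure. As background, 2T3 was established from calvarial cells of mice that carry the SV40 large T antigen under a Bmp2 promoter, and T antigen binds the retinoblastoma proteins and p53, so cell cycle control in this line is not that of a primary osteoblast.

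The cell cycle runs on cyclins, which rise and fall to switch cyclin-dependent kinases (CDKs) on and off. D cyclins with Cdk4 or Cdk6 act in G1, and A and B cyclins with Cdk1 drive entry into mitosis, where Aurora and Polo kinases, kinesins and the spindle checkpoint order chromosome segregation before the anaphase-promoting complex ends it. In bone, pre-osteoblasts divide and later leave the cycle as they mature, which is why these transcripts are used to follow growth of osteoblast cultures.

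None of the 46 genes passed the threshold (0 by limma at an adjusted p under 0.05, lowest adjusted p = 0.0943), against 0.198% of all genes called lower and 0.0815% called higher. At an unadjusted p under 0.05, 7 of the 46 (15.2%) were lower in simulated microgravity and 0 were higher, where 5.69% of all genes were lower and 5.79% higher at that level. These 7 were Mki67, the mitotic cyclins Ccna2 and Ccnb2, the centromere histone Cenpa, the spindle kinesin Kif11, the Aurora kinase Aurkb and the CDK inhibitor Cdkn2c. Values were lower in 37 of the 46 genes (80.4%), against 43.4% of all genes. The median log2 change, microgravity minus static, was -0.19 over the 46 and 0.05 over all genes. All 3 arrays of simulated microgravity lay below all 3 static ones for 9 of the 46 (8.07% of all genes), and above them for 1, Bub3 (8.51% of all genes). A mean above the array median was found for 91.3% of the 46 and 53.9% of all genes. Of those 42 members, 14.3% were lower and 0 higher at an unadjusted p under 0.05. Of all 4626 such genes, 7.65% were lower and 8.8% higher. Groups were separate and lower for 19% of the 42 and 10.2% of the 4626, and separate and higher for 2.38% and 12.5%. The count of 7 became 6 to 9 over 21 alternative settings, and the count of genes higher at that level stayed at 0 in each of them. RNA was taken from whole cultures, so fewer dividing cells and less transcript per cell cannot be told apart.

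**Figure D1:**
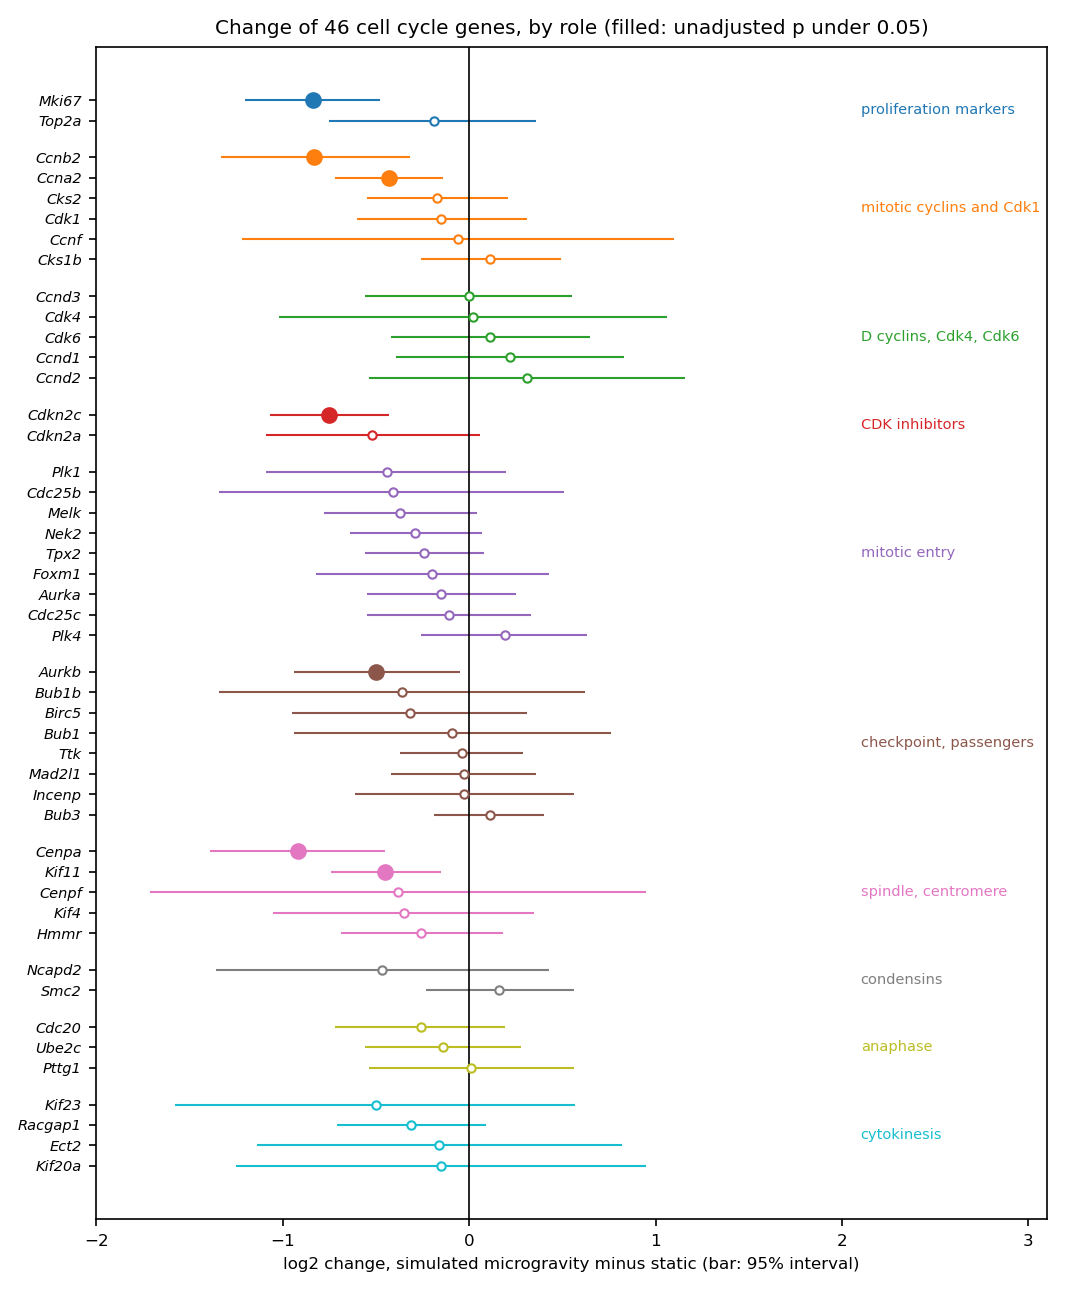
Log2 change of each of the 46 genes (x axis, simulated microgravity minus static) with its 95% interval from limma, grouped by role along the y axis. Filled points mark the 7 genes with an unadjusted p under 0.05, which all lie left of 0, and the intervals of the other 39 cross 0.

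Each level is a relative intensity, the probe's intensity over the median of its array, listed in the order of samples 1, 2 and 3 of a group. All 46 genes had a value above the floor of 0.1 on every array, and 32 lay above the array median on all 6 arrays. Over the arrays, the deposited medians lay between 0.908 and 0.927. The floor held 9.16% of values on static 2 and 6.44% on microgravity 2, against 17.1% (microgravity 3) to 19.8% (microgravity 1) on the others. In the whole series 28 probes passed, 19 lower and 9 higher, against 44 lower and 12 higher after cyclic loess normalization. The label of an osteoblast line was checked on 10 measured markers. Sparc, Col1a1, Col1a2 and Postn were above the array median on all 6 arrays, while Ibsp, Dmp1, Phex and Dlx5 were below it on all 6. The other 2, Alpl and Pth1r, were lower in simulated microgravity at ratios of 0.211 and 0.198 (limma adjusted p = 0.0295 and 0.0194). Markers of endothelium and epithelium (7 measured) and skeletal muscle (7) were below the array median on every array, and Adipoq, Retn, Ptprc and Itgam had group means of 0.0430 to 0.110. The summed relative intensity of 4 adipocyte markers, nearly all from Fabp4 and Lpl, was 39.7 to 46.9 on static and 33.5 to 39.0 on microgravity arrays, and that of 10 osteoblast markers 308 to 441 and 201 to 255. Those of macrophages, osteoclasts and blood (6 measured, mostly Ctsk and Lyz2) came to 5.43 to 7.71 and 7.58 to 9.22, and those of chondrocytes (6 measured) to 2.37 to 3.40 and 2.07 to 2.55. The part of other cell types in the results below was not tested.

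Promoters of genes used in mitosis often hold a CCAAT box, bound by NF-Y, together with a cell cycle genes homology region (CHR), bound by MuvB complexes, and E2F sites are typical of genes switched on around S phase. These letters were looked up in RefSeq promoter windows of build GRCm38.p6, each 300 bases long from 250 before to 50 after a gene start, which were found for 37 of the 46 measured genes. On both strands, the CCAAT box was searched by its name's letters. A CHR was counted where the window held TTTGAA and also where it held TTTAAA. The E2F letters were TTCCCGC and, as a second form, TTGGCGC. The E2F letters can share TTGG with a reversed CCAAT, and TTTAAA reads the same on both strands. Of the 42 windows of measured members, 59.5% held both CCAAT and CHR letters, against 10.7% of all 32851 windows and 8.37% of the windows of genes on the array. Counted each by itself, whatever else the window held, CCAAT was in 76.2% against 37.4% of all windows. CHR letters were in 64.3% against 27.6%, and E2F letters in 19.0% against 6.81%. Among windows of genes on the array these shares were 37.1%, 21.3% and 10.3%. A match of letters is a description and not a site.

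The stretches below run from 200 bases before to 25 after the start. They are examples picked among genes with lower values and genes whose groups overlapped. Members whose groups overlapped and whose windows lack CCAAT or CHR letters are not printed. Of the genes with an unadjusted p under 0.05, Ccna2 and Aurkb had no window. Mki67 (chr7:135716355-135716579 (-)), Ccnb2 (chr9:70421530-70421754 (-)), Cenpa (chr5:30666686-30666910 (+)) and Kif11 (chr19:37376182-37376406 (+)) had lower values and hold both CCAAT and CHR letters. Cdkn2c (chr4:109666732-109666956 (-), 1 of its 2 windows) had lower values, with E2F letters but neither CCAAT nor CHR letters in the stretch. Its other window, not printed here, holds CCAAT letters but neither CHR nor E2F letters. Cdk1 (chr10:69352888-69353112 (-)) and Top2a (chr11:99024165-99024389 (-)) overlapped between groups. Each is written 5′ to 3′ on the gene's strand, with the searched letters in capitals.
Mki67: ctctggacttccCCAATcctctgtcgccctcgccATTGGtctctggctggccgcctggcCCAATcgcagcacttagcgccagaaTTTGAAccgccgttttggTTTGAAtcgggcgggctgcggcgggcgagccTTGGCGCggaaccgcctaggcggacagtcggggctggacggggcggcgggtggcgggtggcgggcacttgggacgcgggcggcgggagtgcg
Ccnb2: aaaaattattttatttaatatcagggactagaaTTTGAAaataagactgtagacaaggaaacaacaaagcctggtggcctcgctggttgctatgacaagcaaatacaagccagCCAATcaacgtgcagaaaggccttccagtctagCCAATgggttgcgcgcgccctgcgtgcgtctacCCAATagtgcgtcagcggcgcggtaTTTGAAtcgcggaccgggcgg
Cenpa: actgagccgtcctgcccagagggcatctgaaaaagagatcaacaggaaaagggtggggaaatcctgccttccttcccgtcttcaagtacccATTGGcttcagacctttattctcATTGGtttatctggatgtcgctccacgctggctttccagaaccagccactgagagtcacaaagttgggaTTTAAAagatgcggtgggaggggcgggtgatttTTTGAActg
Kif11: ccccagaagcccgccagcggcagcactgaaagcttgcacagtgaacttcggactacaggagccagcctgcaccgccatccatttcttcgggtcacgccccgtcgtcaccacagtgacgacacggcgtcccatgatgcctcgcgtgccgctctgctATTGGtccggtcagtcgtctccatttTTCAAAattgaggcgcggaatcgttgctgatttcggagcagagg
Cdkn2c: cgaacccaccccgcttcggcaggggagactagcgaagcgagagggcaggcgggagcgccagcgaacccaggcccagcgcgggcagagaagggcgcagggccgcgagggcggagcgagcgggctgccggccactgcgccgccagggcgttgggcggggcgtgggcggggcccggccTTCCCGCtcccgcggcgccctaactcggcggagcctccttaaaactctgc
Cdk1: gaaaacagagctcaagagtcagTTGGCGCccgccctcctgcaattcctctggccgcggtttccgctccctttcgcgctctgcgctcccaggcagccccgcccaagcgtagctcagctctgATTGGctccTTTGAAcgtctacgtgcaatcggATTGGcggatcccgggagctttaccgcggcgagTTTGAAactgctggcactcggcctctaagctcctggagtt
Top2a: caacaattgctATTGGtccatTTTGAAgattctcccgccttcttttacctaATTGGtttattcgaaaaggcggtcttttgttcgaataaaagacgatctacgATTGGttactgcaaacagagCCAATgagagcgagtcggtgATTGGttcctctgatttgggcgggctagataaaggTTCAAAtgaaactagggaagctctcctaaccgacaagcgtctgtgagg

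In these stretches Mki67 has 3 CCAAT and 2 CHR matches and Ccnb2 has 3 and 2. Cdk1 and Top2a, whose groups overlapped, also have 2 CHR matches each, with 2 and 5 CCAAT matches. Among measured members, the 23 genes with both letters in a window had a median log2 change of -0.26 (20 lower), and the 14 with a window but without both had -0.13 (10 lower). Split by CCAAT letters, the 30 genes with them had -0.28 (27 lower) and the 7 without had 0.01 (3 lower). Split by CHR letters, the 25 with had -0.26 (21 lower) and the 12 without -0.13 (9 lower). For E2F letters, the 7 with had -0.47 (6 lower) and the 30 without -0.23 (24 lower). These differences were not tested.

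Mki67, which encodes the Ki-67 protein present in cycling cells and absent from resting ones, had the smallest p of the 46. Its relative intensity was 35.7, 34.6 and 32.1 in static cells and 17.0, 22 and 18.4 in simulated microgravity. Every microgravity value lay well below every static one. The ratio was 0.558, a value 1.79-fold lower. The log2 change was -0.84 with an SE of 0.15 (adjusted p = 0.0943 by limma), which ranked 87 among the 8588 genes by p. The adjusted p was 0.0458 with array weights and up to 0.361 over the other alternatives. Top2a, the topoisomerase that untangles chromosomes for mitosis, had 11.5, 14.4 and 18.5 in static cells and 14.4, 14.3 and 9.93 in simulated microgravity. Its groups overlapped, with the lowest value on microgravity 3 (log2 change -0.19, 95% interval -0.75 to 0.36). With 1 array left out its log2 change ran from -0.36 (without static 1) to -0.01 (without microgravity 3). Whether the markers differ in their change was not tested.

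**Figure D2:**
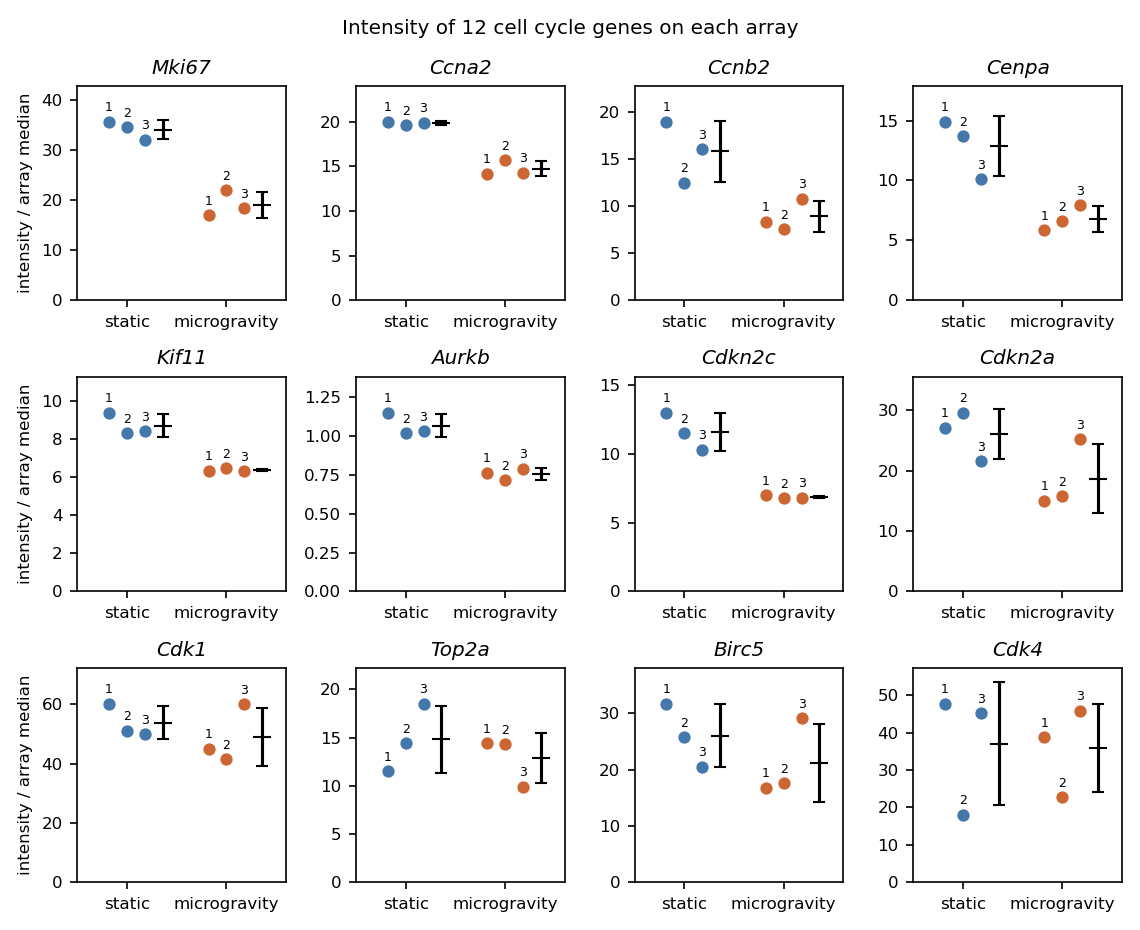
Relative intensity (y axis, intensity over the array median, linear from 0) of 12 genes on the 3 static (blue) and 3 simulated microgravity (orange) arrays, numbered 1 to 3, with mean and SD in black. Mki67, Ccna2, Ccnb2, Cenpa, Kif11, Aurkb and Cdkn2c show separate groups, whereas Cdkn2a, Cdk1, Top2a, Birc5 and Cdk4 overlap.

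Of the mitotic cyclins and Cdk1 with its subunits, 5 of 6 had log2 changes below 0, and 2 of them, Ccna2 and Ccnb2, an unadjusted p under 0.05. Ccna2, the A cyclin of S phase and mitotic entry, had 20, 19.6 and 19.9 in static cells and 14.2, 15.7 and 14.3 in simulated microgravity. The static arrays agreed closely, and the groups did not overlap (log2 change -0.43, SE 0.12, limma adjusted p = 0.238). Ccnb2, a B cyclin that activates Cdk1, had 19.0, 12.5 and 16.1 against 8.39, 7.58 and 10.8. The gap was small beside the spread, with static 2 at 12.5 nearest to microgravity 3 at 10.8 (ratio 0.564, log2 change -0.83, SE 0.21, limma adjusted p = 0.191). Both cyclins kept an unadjusted p under 0.05 in each of 21 alternatives. Cdk1, the mitotic kinase itself, had 60.2, 51.1 and 50 in static cells and 45.1, 41.6 and 60.0 in simulated microgravity. Microgravity 3 reached the level of static 1, so the groups overlapped (log2 change -0.15, 95% interval -0.60 to 0.31, an interval that holds the change of Ccna2). With 1 array left out its log2 change ran from -0.31 (without microgravity 3) to -0.04 (without microgravity 2). The small CDK-binding subunits Cks1b and Cks2 had ratios of 1.08 and 0.888. Ccnf, the F-box protein that bears the cyclin F name, had 0.960 with a wide interval (-1.22 to 1.10 in log2).

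On the G1 side of the cycle, 4 of 5 D cyclins and partner kinases had log2 changes above 0. None of the 5 had an unadjusted p under 0.05, and 4 took the other sign in some alternative. Ccnd1, the D cyclin that answers to growth factors, was dim, at 0.206, 0.282 and 0.279 in static cells and 0.228, 0.305 and 0.368 in simulated microgravity. These values lie below the array median on all arrays and overlap (log2 change 0.22, 95% interval -0.39 to 0.83). Ccnd2 had 1.35, 1.56 and 0.836 against 1.26, 1.15 and 2.31, where microgravity 3 alone was high. Ccnd3 had 1.46, 1.40 and 1.17 against 1.28, 1.09 and 1.72, again with microgravity 3 the highest. Their log2 changes were 0.31 (95% interval -0.54 to 1.16) and -0.0013 (-0.56 to 0.55). Cdk6 was dim on every array, at 0.325, 0.271 and 0.306 against 0.280, 0.404 and 0.301 (log2 change 0.11). Cdk4 had 47.7, 18.1 and 45.2 in static cells and 38.8, 22.8 and 45.8 in simulated microgravity. Here the sample numbered 2 was low in both groups, so the spread within groups was far larger than the log2 change of 0.02 (95% interval -1.02 to 1.06).

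The 2 CDK inhibitors measured among the 46, both of the Ink4 family that restrains Cdk4 and Cdk6, had lower values in simulated microgravity. Cdkn2c, which encodes p18Ink4c, had 13.0, 11.5 and 10.3 in static cells and 6.98, 6.80 and 6.82 in simulated microgravity. The microgravity arrays were nearly identical and lay below all static ones. Its ratio was 0.595 (log2 change -0.75, SE 0.14, limma adjusted p = 0.0958), and it kept an unadjusted p under 0.05 in each of 21 alternatives. Cdkn2a, whose locus encodes both p16Ink4a and p19Arf, had 27.1, 29.6 and 21.6 against 15.0, 15.8 and 25.2. Microgravity 3 lay within the static range while the other 2 microgravity arrays were below it (log2 change -0.52, 95% interval -1.09 to 0.06, limma adjusted p = 0.533). Which of the locus's products the probe reads was not examined. Outside the 46 genes, the CDK inhibitors Cdkn1c and Cdkn1a, named here after their values were seen, had ratios of 0.681 and 1.07.

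Genes of mitotic entry had lower values in 8 of 9 cases, with log2 changes of -0.44 to 0.19 and 0 at an unadjusted p under 0.05. Foxm1, the transcription factor of late cell cycle genes, had 1.23, 0.859 and 1.22 in static cells and 1.07, 0.732 and 1.09 in simulated microgravity. The sample numbered 2 was the lowest in both groups (log2 change -0.20, 95% interval -0.82 to 0.43). Plk1, the Polo kinase that starts mitosis, had 1.37, 0.940 and 1.24 against 1.05, 0.642 and 0.939, with the same sample number low. Its groups overlapped only between static 2 and microgravity 1 (log2 change -0.44, 95% interval -1.09 to 0.20). Aurka, the Aurora kinase of spindle poles, had 2.02, 2.01 and 2.21 against 2.16, 1.75 and 1.75, with microgravity 1 inside the static range (log2 change -0.15). Melk and the centrosome kinase Nek2 did not overlap between groups, at ratios of 0.773 and 0.821. Nek2 had 2.16, 2.12 and 2.15 in static cells and 1.81, 1.77 and 1.70 in simulated microgravity, a tight pattern but a small change (log2 change -0.29, 95% interval -0.64 to 0.07, since limma draws small spreads toward those of other probes). Tpx2, an activator of Aurka on the spindle, had a ratio of 0.847, the phosphatases Cdc25b and Cdc25c had 0.752 and 0.925, and the centriole kinase Plk4 had 1.14.

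Of the spindle checkpoint and the chromosomal passenger complex, Aurkb had the clearest lower values. Aurkb, the kinase of the passenger complex that corrects wrong spindle attachments, had 1.15, 1.02 and 1.03 in static cells and 0.763, 0.715 and 0.791 in simulated microgravity. The groups were separate, though all values were near the array median (log2 change -0.50, SE 0.19, limma adjusted p = 0.401). Its unadjusted p was under 0.05 in 12 of 20 alternatives in which it was measured. The difference between Aurkb and its partners was not tested. Birc5, or survivin, had 31.7, 25.8 and 20.5 against 16.8, 17.6 and 29.1, so that microgravity 3 exceeded 2 of the static arrays (log2 change -0.32, 95% interval -0.95 to 0.31). With 1 array left out its log2 change ran from -0.57 (without microgravity 3) to -0.17 (without static 1). The scaffold Incenp had a ratio of 0.983 (95% interval of the log2 change -0.61 to 0.56). Bub1, a checkpoint kinase at kinetochores, had 1.41, 2.17 and 1.74 against 2.05, 2.21 and 0.965, which overlap, with microgravity 3 the lowest (log2 change -0.09, 95% interval -0.94 to 0.76). The other checkpoint genes Bub1b, Mad2l1 and Ttk had ratios of 0.778, 0.978 and 0.972. Bub3, also a checkpoint protein, was the one member whose microgravity values all lay above the static ones, by a ratio of 1.08 (log2 change 0.11, 95% interval -0.19 to 0.40).

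The 5 measured spindle and centromere genes among the 46 had lower values, and 2 of them had an unadjusted p under 0.05. Cenpa, the histone variant that marks centromeres, had the lowest ratio of the 46, 0.529. It had 14.9, 13.7 and 10.1 in static cells and 5.86, 6.59 and 7.95 in simulated microgravity. Static 3 was the low static array and still lay above microgravity 3 (log2 change -0.92, SE 0.20, limma adjusted p = 0.133). Kif11, the kinesin that pushes spindle poles apart, had 9.37, 8.29 and 8.39 against 6.34, 6.45 and 6.31. The microgravity arrays agreed closely and the groups were separate (ratio 0.734, log2 change -0.45, SE 0.12, limma adjusted p = 0.228). Both kept an unadjusted p under 0.05 in each of 21 alternatives. The kinetochore protein Cenpf, the chromokinesin Kif4 and the hyaluronan receptor Hmmr, which also binds spindles, had ratios of 0.769, 0.786 and 0.838 with groups that overlapped. Cenpf varied widely within a group, at 3.07, 0.845 and 3.08 in simulated microgravity.

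Condensins, anaphase genes and cytokinesis genes held 0 members at an unadjusted p under 0.05. Cdc20, which activates the anaphase-promoting complex, had 7.80, 9.23 and 5.83 in static cells and 6.09, 6.60 and 6.05 in simulated microgravity, all 3 of the latter within the static range (log2 change -0.26, 95% interval -0.72 to 0.19). Its ubiquitin-conjugating partner Ube2c and securin (Pttg1) had ratios of 0.908 and 1.01. The condensin subunits Smc2 and Ncapd2 had 1.12 and 0.724, with log2 intervals of -0.23 to 0.56 and -1.36 to 0.43. Both probes of Smc2 gave a log2 change of 0.16. The cytokinesis genes Kif23, Racgap1, Ect2 and Kif20a had ratios of 0.706, 0.807, 0.893 and 0.90. Of these, Racgap1, a GTPase-activating protein of the central spindle, had the narrowest interval (log2 change -0.31, 95% interval -0.71 to 0.09).

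Other genes of the cycle were read from 3 lists, of which none had a member past the threshold (0 by limma). The other mitotic machinery (61 measured of 125 listed, kinetochore, cohesin, anaphase-promoting complex and spindle genes) had a median log2 change of -0.08, with 36 lower. At an unadjusted p under 0.05, 3 were lower (4.92%) and 2 higher (3.28%). Of all genes, 5.69% were lower and 5.79% higher at that level, and 43.4% had a log2 change below 0. The 4 with the smallest p were Cdca3, a mitotic entry factor, and the kinase Nek3 at ratios of 0.618 and 0.585, and the centromere protein Cenpq and the microtubule end-binding Mapre1 at 1.47 and 1.32. DNA replication and nucleotide synthesis (57 measured of 64) had a median of 0.08 with 39 higher. At an unadjusted p under 0.05, 1 was lower (1.75%) and 2 higher (3.51%). Its 4 were Orc4 of the origin recognition complex at 1.52, Gins1 of the replicative helicase at 1.40, the polymerase subunit Pole3 at 1.28 and thymidine kinase Tk1 at 0.673. Other cell cycle control (42 measured of 53) had a median of 0.02, with 21 lower and 21 higher. At an unadjusted p under 0.05, 4 were lower (9.52%) and 1 higher (2.38%). Its 4 with the smallest p included the stress-induced Gadd45a at a ratio of 2.54. The others, with lower values, were Gadd45g (0.475), the CDK phosphatase Cdkn3 (0.577) and Gadd45b (0.629). Limma adjusted p-values of these 12 genes were 0.159 to 0.474. Whether the lists differ from each other was not tested.

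**Figure D3:**
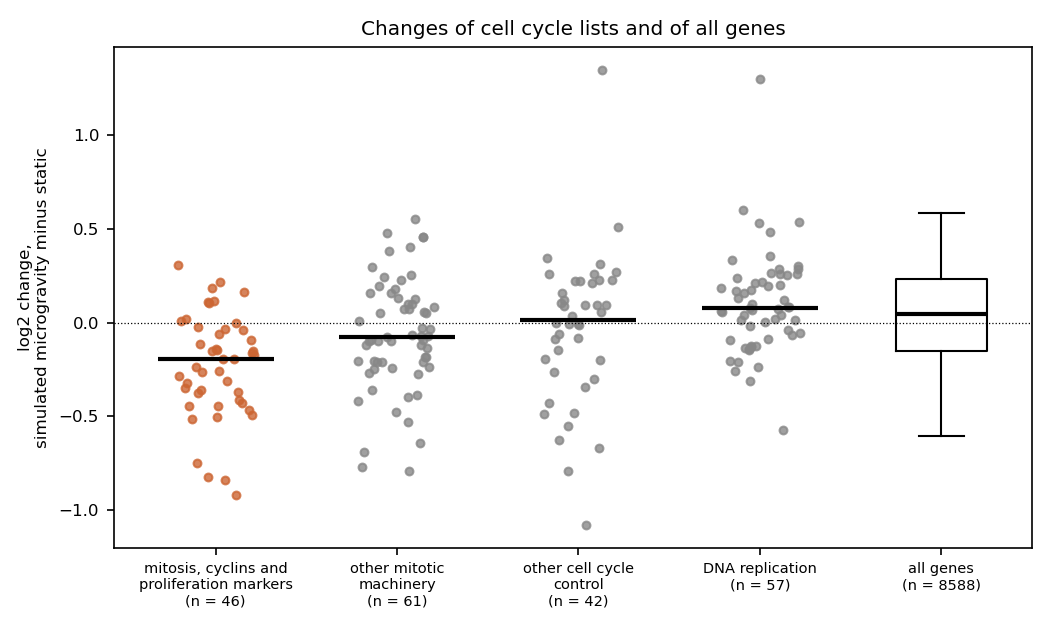
Log2 change (y axis, simulated microgravity minus static) of each measured gene of 4 cell cycle lists, with the list's median as a black line, and of all 8588 genes as a box (quartiles, whiskers at the 5th and 95th percentiles). The 46 genes of mitosis, cyclins and proliferation have a median of -0.19, against -0.08, 0.02 and 0.08 for the other lists and 0.05 for all genes.

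Genes also differed between samples of the same group in a shared way, a pattern picked out after the values were seen. Cdk4, Kif20a and Cenpf had their lowest value on the sample numbered 2 in each group, and Kif20a had 5.94, 2.16 and 5.43 in static cells and 4.30, 2.31 and 5.13 in simulated microgravity. The arrays numbered 2 also had the smallest shares of values at the floor, 9.16% on static 2 and 6.44% on microgravity 2. Bub1, Bub1b, Ect2, Kif23 and Cdc25b were lowest on static 1 and on microgravity 3. Ect2, which activates the GTPase of the cleavage furrow, had 2.99, 5.45 and 4.21 against 4.08, 5.86 and 2.04. Birc5, Cdk1, Ccnd3 and Ncapd2 were highest on those same arrays. Of the 46 genes, 33 (71.7%) had their lowest values on static 1 with microgravity 3, static 2 with microgravity 2 or static 3 with microgravity 1. Of all genes with values on 6 arrays 61.8% did so, and of those with a mean above the array median 67.9%. Across probes, which are not independent replicates, deviations from the group mean on static 1 correlated with those on microgravity 3 at 0.66, static 2 with microgravity 2 at 0.45, and static 3 with microgravity 1 at 0.38, while the other pairs lay between -0.45 and -0.10. A group's deviations cancel out for each probe, so these correlations depend on each other, and positive ones push others negative. The part of this shared pattern in the results was not tested.

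**Figure D4:**
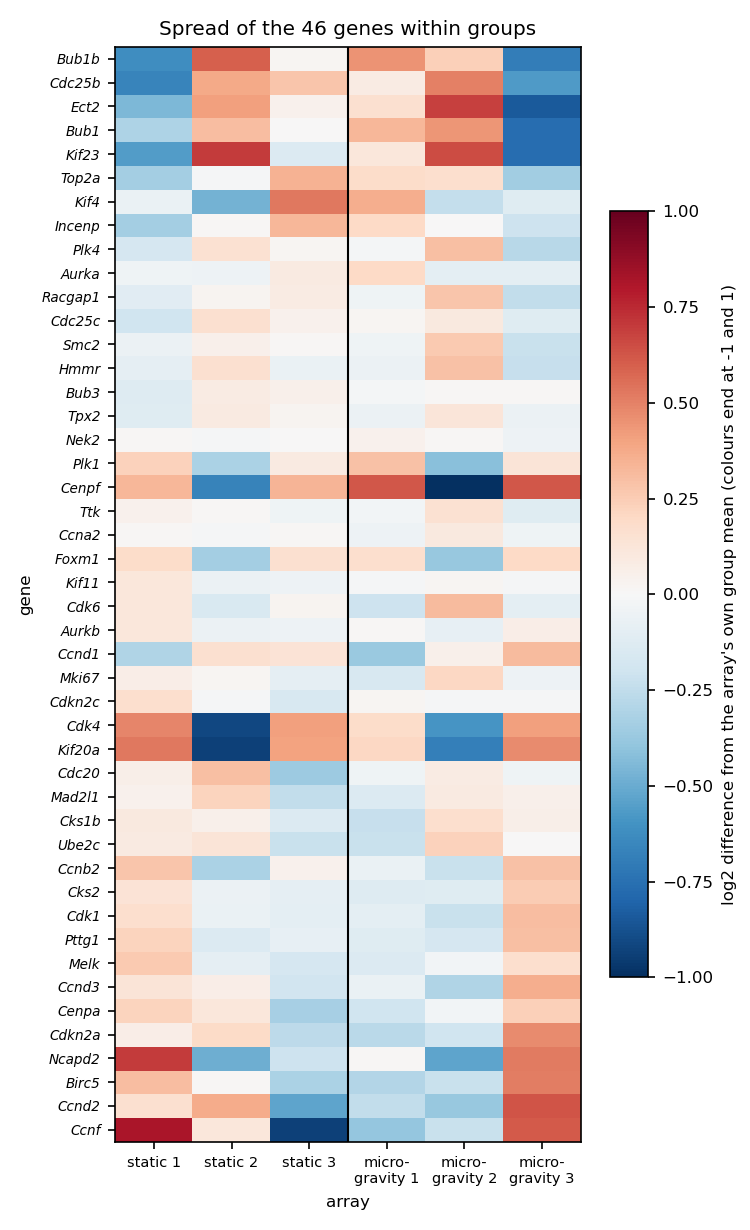
Log2 difference of each of the 46 genes (rows) from its own group's mean on each array (columns), red above and blue below, with colours ending at -1 and 1 and rows ordered by this pattern. Kif20a and Cdk4 are blue on static 2 and microgravity 2, while Ect2, Bub1b and Kif23 are blue on static 1 and microgravity 3.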

How the data were processed

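Per the labels, total RNA of 6 samples was measured on expression arrays, 1 array per sample. The deposited values are intensity values on a linear scale, 1 per probe (10500 probes). The authors' scaling, the scanner and the array's maker are not given in these sources. Every value was taken relative to its array's median, raised to a floor of 0.1 where lower, and put on the log2 scale. Of the probes, 10146 were tested, after those at the floor on all arrays and those with under 2 values in either group were dropped. Symbols came from GEO's platform annotation (8983 probes with 1 symbol, 1 with several, 1516 with none). Groups were compared with limma 3.58.1 in R 4.3.3 (lmFit, eBayes with trend, 2-sided, Benjamini-Hochberg over all probes tested, threshold 0.05). The fit was tested on simulated data. The number of arrays, 3 per group, limits precision. The labels do not say that samples came from separate cultures, so the p-values speak only of spread among these samples, and that spread may be technical.

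The members and lists were chosen with earlier results of these data known. By rule, 21 members chosen for their role, where measured, and members with an unadjusted p under 0.05 are given by array. Other members are given by ratio. From each other list of cell cycle genes, the 4 genes with the smallest p are given. Outside this rule, Nek2, Kif20a and Ect2 are also given by array, and Cenpf in simulated microgravity, with their values already known. The alternatives were other floors, normalizations, variance models, array weights, filters on dim probes, a replicate block, left-out arrays, averaged probes and a threshold of 0.1. The threshold of 0.1 leaves unadjusted p-values as they were, so counts at an unadjusted p under 0.05 cannot move with it.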

Additional observations from a re-analysis of the deposited data

How the results depend on the processing

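The 28 probes past the threshold in the whole series became 53 with the floor at 0.05 of the median, 59 with no floor, 54 with quantile and 56 with cyclic loess normalization, 115 with array weights, 59 and 54 with the dimmest 25% and 50% left out and 121 at a threshold of 0.1. They were 0 with any 1 array left out, with both arrays numbered 2 left out, and with the replicate number as a block. Of the members, 1 (Mki67) passed with array weights and 2 (Mki67 and Cdkn2c) at the threshold of 0.1. The count of 7 lower members was 6 with the block, which changed no member's call. Same-numbered arrays deviated together only for number 2 (correlations over probes of -0.21, 0.45 and -0.18). The labels do not say whether same-numbered samples were handled together, and these correlations cannot show it.

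The members' median of -0.19 was -0.24 with quantile and cyclic loess normalization, -0.25 with the dimmest 50% left out, and -0.25 to -0.19 with 1 array left out. The other mitotic list's -0.08 was -0.12 with either normalization and -0.09 to -0.02 with 1 array left out. DNA replication's 0.08 was 0.03 with quantile and 0.04 with loess normalization and 0.04 to 0.12 with 1 array left out. Other cell cycle control had 0.06 with the dimmest 50% left out and -0.02 to 0.05 with 1 array left out. The 10 members with separate groups became 12 to 16 with 1 array left out, the most without microgravity 3. They were 19 without both arrays numbered 2, where fewer arrays must stay apart. Shares of all genes with separate groups at these settings were not computed, so these counts are not read as a result about the members.

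Of the 46 members, 13 took the other sign in some alternative. Among the members given by array under the rule above these were 5. Cdk4 had -0.05 with quantile and -0.06 with loess normalization, -0.09 with array weights, -0.14 without both arrays numbered 2 and -0.43 to 0.31 with 1 array left out. Ccnd3 had 0.0018 with loess normalization, 0.06 with array weights, 0.18 without both arrays numbered 2 and -0.18 to 0.15 with 1 left out. Cdk6 had -0.03, -0.12 and -0.05 to 0.22 with weights, without those 2 arrays and with 1 left out. Bub1 had 0.02 with weights and -0.31 to 0.29 with 1 left out, and Ccnd2 -0.0047 to 0.50 with 1 left out. The cause was not tested. The other 8 were Ccnf, Pttg1, Mad2l1, Kif20a, Incenp, Ect2, Ttk and Cenpf, and 33 members kept their sign in every alternative. Signs turned only with other normalizations, array weights or left-out arrays. The remaining alternatives left the log2 changes of the members given by array under that rule unchanged where measured. They could not turn those signs.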

Other observations

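SV40 T antigen, which immortalised this line, is known to bind the retinoblastoma family and p53. Of a short list of these partners and p53 targets, 6 of 8 genes were measured, and 0 passed the threshold (0 by limma, also 0 at an unadjusted p under 0.05). Rb1 had a relative intensity of 5.17, 4.59 and 5.79 in static cells and 5.27, 5.65 and 4.55 in simulated microgravity, which overlap (log2 change -0.01, 95% interval -0.38 to 0.37). The p53 target Cdkn1a, which encodes the CDK inhibitor p21, had 1.47, 3.77 and 1.45 against 2.32, 1.81 and 2.32, with static 2 alone high (log2 change 0.09, 95% interval -0.83 to 1.02). Ccng1, another p53 target, had 2.74, 2.43 and 2.22 against 1.52, 2.22 and 1.59 (log2 change -0.49, 95% interval -0.98 to 0.0027). The p53 target Mdm2 had a log2 change of 0.42 (95% interval -0.42 to 1.26). Rbl2 and Rbl1, of the retinoblastoma family, had log2 changes of -0.43 (-1.18 to 0.32) and -0.0029 (-0.79 to 0.78).

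Of the Gadd45 genes, which encode stress-induced proteins that bind cell cycle regulators, Gadd45a had higher and Gadd45g lower values. Gadd45a had 21.2, 30.2 and 12.5 in static cells and 55.0, 43.1 and 55.8 in simulated microgravity, with separate groups. Gadd45g had 7.19, 6.46 and 8.74 against 3.72, 2.54 and 4.60, also with separate groups. Neither passed the threshold (limma adjusted p = 0.173 and 0.159), and the difference between them was not tested.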
